A study of Homo sapiens with 12 samples.

Results

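The genes described here are the subunits, regulators and target genes of the transcription factor NF-kB, measured in INA-6 cells, a human myeloma cell line kept on interleukin-6 at 2 ng/ml. They were taken from a list of 32 gene symbols, and 29 of them could be measured among the 19775 genes of the array. The other 3 are not analysed here. The measured genes fall into 9 of the canonical pathway, 5 of the non-canonical pathway, 2 atypical regulators and 13 target genes. Each gene was read from 1 probe set, the group of oligonucleotides that reports a transcript, and where a gene had several the probe set with the highest mean over all 12 arrays was used. The groups were 4 arrays of cells treated with SB590885, an inhibitor of Raf kinases, 4 of cells treated with PD325901, an inhibitor of MEK, the kinase below Raf, and 4 of cells given the solvent DMSO. All 3 groups were the same line in the same interleukin-6 medium. No source used here gives the dose or the duration. The 4 arrays of a group are named biological replicates in the design text, with nothing on separate cultures, so a p-value covers only how far these arrays scatter.

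NF-kB is a family of dimers built from RELA, REL, RELB and the processed products of NFKB1 and NFKB2. In the canonical pathway, I-kappa-B proteins hold the dimers in the cytoplasm until the IKK complex marks them for destruction, and the freed dimers switch on genes that include their own inhibitors. In the non-canonical pathway, the kinase MAP3K14 drives processing of NFKB2, which then pairs with RELB, and TRAF3 with the ubiquitin ligase BIRC2 keeps MAP3K14 low. Mutations that raise NF-kB activity, among them losses of TRAF3 and CYLD, are known in multiple myeloma.

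NF-kB dimers bind a 10-base element, the kappa B consensus, and the promoters of several of these genes carry it. The RefSeq sequence (GRCh38.p14) from 250 bases before to 50 bases after each start was searched on both strands. The consensus stood in 5.91% of 35116 promoters and in 17 of the 42 promoters of these genes. Counted by gene, 14 of the 25 measured members with a promoter sequence held it, against 7.09% of 27305 genes. The following stretches, in lower case with each match in capitals, belong to members whose SB590885 arrays were higher than DMSO in the test with the replicate block described below.
NFKBIA: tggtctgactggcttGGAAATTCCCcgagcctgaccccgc
NFKBIZ: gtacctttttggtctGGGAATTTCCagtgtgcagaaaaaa
TNFAIP3: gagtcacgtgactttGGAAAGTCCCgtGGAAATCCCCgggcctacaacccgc
TNIP1: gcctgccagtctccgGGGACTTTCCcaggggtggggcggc
CYLD: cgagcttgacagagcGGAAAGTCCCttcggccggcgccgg
REL: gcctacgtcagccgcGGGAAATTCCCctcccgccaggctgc
TRAF3: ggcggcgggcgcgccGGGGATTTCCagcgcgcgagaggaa
CD83: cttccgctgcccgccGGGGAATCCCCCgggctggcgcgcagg
They lie upstream of the annotated start and are written on the strand of the gene. The NFKBIA stretch is chr14:35404806-35404845 on the minus strand, with its match starting 81 bases before the start. The NFKBIZ stretch is chr3:101827752-101827791 on the plus strand, with its match 223 bases before the start. The TNFAIP3 stretch, which holds a pair of matches, is chr6:137867177-137867228 on the plus strand. The TNIP1 stretch is chr5:151081052-151081091 on the minus strand, and the CYLD stretch is chr16:50741882-50741921 on the plus strand. The REL stretch is chr2:60881512-60881552 on the plus strand, the TRAF3 stretch is chr14:102777401-102777440 on the plus strand and the CD83 stretch is chr6:14117681-14117722 on the plus strand.

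Members that did not pass in that test carry the element too, and 4 of their stretches are shown for comparison.
NFKB1: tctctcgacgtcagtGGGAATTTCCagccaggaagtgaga
NFKBIB: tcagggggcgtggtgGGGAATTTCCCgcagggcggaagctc
NFKB2: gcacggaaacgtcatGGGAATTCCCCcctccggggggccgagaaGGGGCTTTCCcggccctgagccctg
IRF1: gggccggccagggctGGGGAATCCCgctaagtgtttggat
The NFKB1 stretch is chr4:102501295-102501334 on the plus strand, the NFKBIB stretch is chr19:38899926-38899966 on the plus strand, the NFKB2 stretch is chr10:102394456-102394524 on the plus strand and the IRF1 stretch is chr5:132490799-132490838 on the minus strand. The 10 letters in capitals in the NFKB1 stretch, read on either strand, stood in 0.145% of all promoters and in those of 5 members, NFKB1, REL, NFKBIA, NFKBIB and NFKBIZ. The 10 letters in capitals in the TNIP1 stretch stood in 0.191% of all promoters and in those of 4 members, TNFAIP3, TNIP1, CYLD and NFKB2. A match is a description of these letters and not a measured binding site.

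The arrays carried structure of their own. Arrays of the same replicate number deviated together from their group means, with correlations from 0.544 to 0.913 over 12 pairs, so the counts of members, and the members described, are also given with the replicate number as a block. Arrays 3 and 4 of each group carry a second label with the letter R, which no source used here explains. Arrays alike in the R mark but of unlike number also correlated. For SB590885 with DMSO their correlations were 0.374 to 0.572, beside 0.544 to 0.636 at the same number. For PD325901 with DMSO they were 0.123 to 0.646, beside 0.789 to 0.913. Arrays of unlike mark correlated negatively. Deviations within a group cancel out, so positive correlations with some of its arrays force negative ones with others. The replicate block also takes in the split by mark. The R mark was called for 55.6% of all genes and for 17 of the 29 members (58.6%). The summed view of 35 interferon response genes, as their median level, was 10.85 on PD325901 array 2 and 10.89 on DMSO array 2, against 8.12 on SB590885 array 2 and 7.24 to 7.68 on the other 9 arrays. Among the members, 16 had their highest PD325901 level on array 2 (21.4% of all genes did) and 17 had their highest DMSO level on array 2 (25.9% of all genes did). The median level of 10 plasma cell markers was 10.88 to 11.18 on SB590885 arrays, 11.30 to 11.64 on PD325901 arrays and 11.12 to 11.44 on DMSO arrays. Of these markers SDC1, SLAMF7 and XBP1 fell in SB590885 cells against DMSO cells, by 0.55, 0.90 and 0.62. Markers of T and NK cells had medians of 6.79 to 7.07 and those of monocytes and dendritic cells 6.63 to 6.76, near or under the median of 6.92 over all probe sets. Of the 10 T and NK cell markers, TRAT1 and CD8A fell in SB590885 cells against DMSO cells, by 1.06 (limma adjusted p = 0.00961) and 0.33 (limma adjusted p = 0.0285). CD247, lower with the block, averaged 10.96 in SB590885 cells and 11.19 in DMSO cells. The part of these markers in the results was not tested. All samples were the INA-6 line, and the arrays do not measure the share of any kind of cell in it. The GAPDH control probes, read near the 3′ end minus near the 5′ end as a measure of RNA quality, differed by 0.440 ± 0.035 in SB590885, 0.425 ± 0.057 in PD325901 and 0.371 ± 0.033 in DMSO samples (SD, n = 4 each), and the part of this in the results was not tested.

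**Figure D1:**
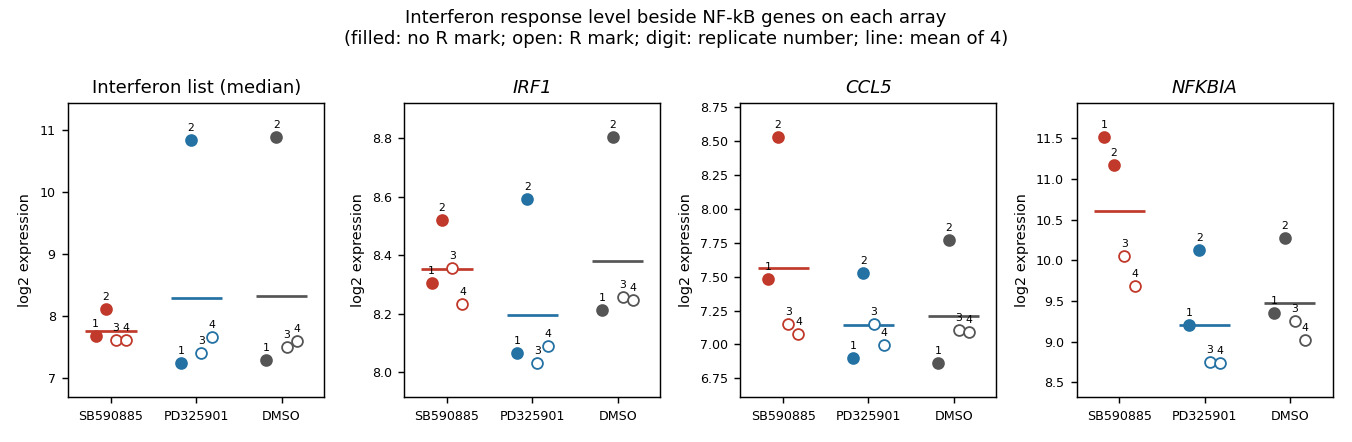
Median log2 level of 35 interferon response genes on each array, by group. Array 2 of PD325901 and of DMSO stood at 10.85 and 10.89, and array 2 of SB590885 at 8.12.

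The first comparison asked how these genes differed under Raf inhibition. In SB590885 cells REL and RELB rose against DMSO cells, which is 2 of 29 members (1.59% of all genes were called higher, and 3.28% in either direction). No member was called lower (1.69% of all genes were). With the replicate number as a block, 11 members were called higher (9.09% of all genes were) and none lower (9.84%). Without array 2 of every group, a setting added after seeing the data, the block called 10 members. TRAF3 and WTAP were no longer among them, so the 10 are not all drawn from the 11. The 11 were REL, RELB, NFKBIA, NFKBIZ, TNFAIP3, TNIP1, CYLD, TRAF3, BIRC2, CD83 and WTAP. They hold 2 subunits, 2 I-kappa-B proteins, 5 brakes on the canonical or the non-canonical pathway and 2 target genes. The median change of the 29 members was 0.08 on the log2 scale, against 0.0038 over all genes. Calls are limma's, at a Benjamini-Hochberg adjusted p under 0.05 over all 19775 genes. In 7 members every SB590885 array stood above every DMSO array (4.45% of all genes did so), and in none every array stood below (5.76%). In 13 members every SB590885 array stood above the DMSO array of its own number (17.1%), and in 1 below it (16.9%).

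**Figure D2:**
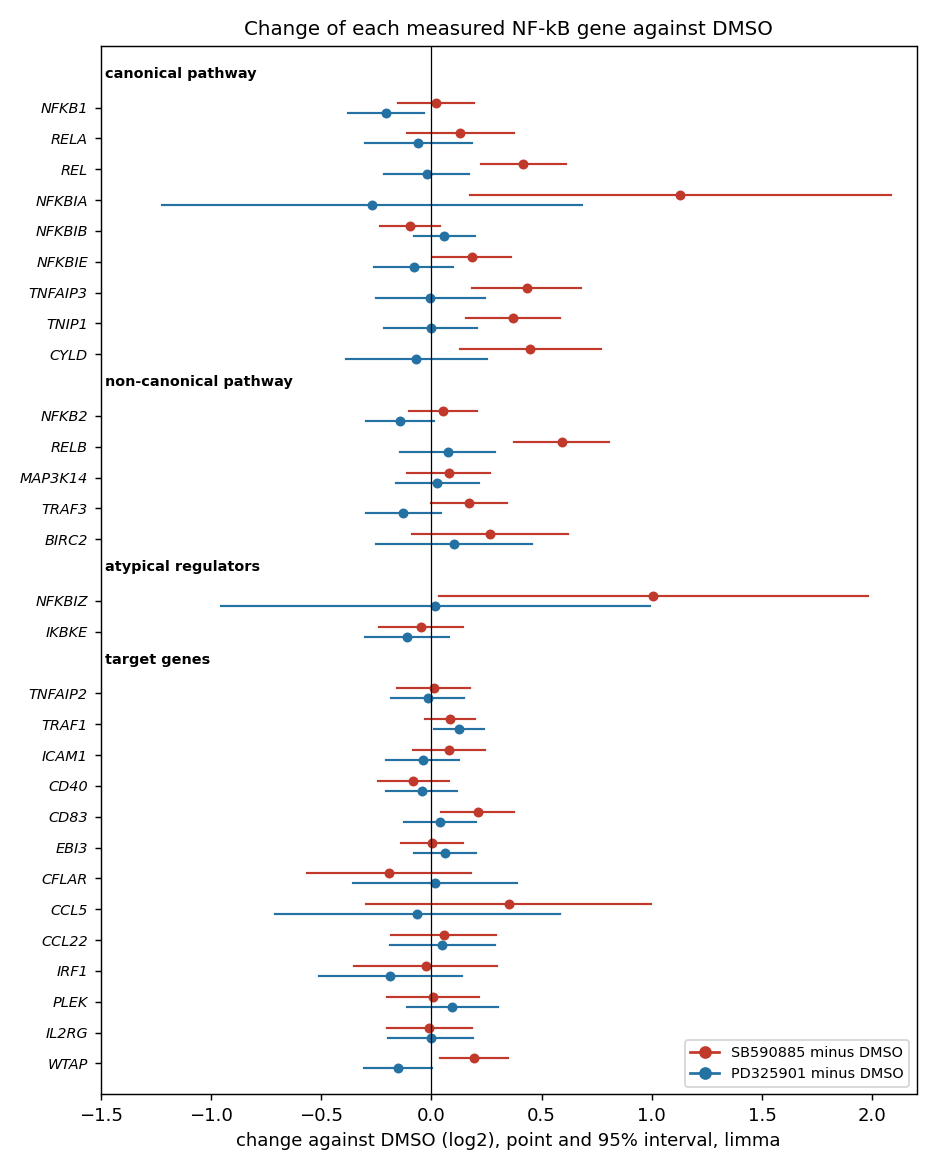
Change of the 29 members against DMSO on the log2 scale, with limma's 95% interval, for SB590885 and PD325901. REL and RELB passed the test for SB590885, at 0.42 and 0.59, and no member passed it for PD325901.

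Of the 9 canonical genes 1 was called higher and 5 with the block, with a median change of 0.37. Of the 5 non-canonical genes 1 was called higher and 3 with the block, with a median of 0.17. Of the 2 atypical regulators, 1 passed with the block. Of the 13 target genes none passed and 2 did with the block (15.4%), with a median of 0.01. Over all genes 1.59% were called higher and 9.09% with the block, with a median change of 0.0038.

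REL, the lymphoid subunit of NF-kB, had log2 levels of 7.78, 7.53, 7.32 and 7.36 in SB590885 cells, 7.04, 7.12, 6.99 and 7.10 in PD325901 cells, and 7.05, 7.15, 7.13 and 7.0 in DMSO cells. All 4 SB590885 arrays lay above all the others. REL rose by 0.42 ± 0.088 (SE, n = 4 each) against DMSO, with limma's adjusted p = 0.0256 and 0.0010 with the block. The call was lost when SB590885 array 2 or any single DMSO array was left out, with adjusted p up to 0.0822. REL has 5 probe sets, and a second one gave 0.38 (limma adjusted p = 0.0612 over all named probe sets). The rest, all dim, gave 0.17, 0.13 and 0.064 and did not pass. The mean of its probe sets gave 0.23 (limma adjusted p = 0.0455).

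RELB, the subunit that pairs with processed NFKB2, had levels of 7.96, 7.76, 7.87 and 8.03 in SB590885 cells, 7.14, 7.41, 7.56 and 7.44 in PD325901 cells, and 7.09, 7.40, 7.39 and 7.37 in DMSO cells. The SB590885 arrays again did not overlap the others. RELB rose by 0.59 ± 0.099 (SE, n = 4 each) against DMSO, a 1.51-fold change, with limma's adjusted p = 0.00892 and 8.33e-05 with the block. It kept its call when each of the 12 arrays was left out in turn, with adjusted p from 0.00534 to 0.0333. Without array 2 of all 3 groups the change was 0.67 and the adjusted p 0.0573. REL was at 0.43 and an adjusted p of 0.171 in that setting. For RELB the change was 0.61 between arrays without the R mark and 0.57 between arrays with it.

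The other subunits did not pass in either fit against DMSO. NFKB1, the precursor of the partner of RELA, differed by 0.02 (95% interval -0.15 to 0.19). RELA, the main activating subunit, differed by 0.13 (95% interval -0.11 to 0.37). NFKB2, the precursor processed in the non-canonical pathway, had 7.13, 7.08, 6.86 and 6.94 in SB590885 cells, 6.79, 6.91, 6.72 and 6.81 in PD325901 cells, and 6.94, 7.08, 6.85 and 6.92 in DMSO cells. These NFKB2 levels overlap and lie close to the median over all probe sets.

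**Figure D3:**
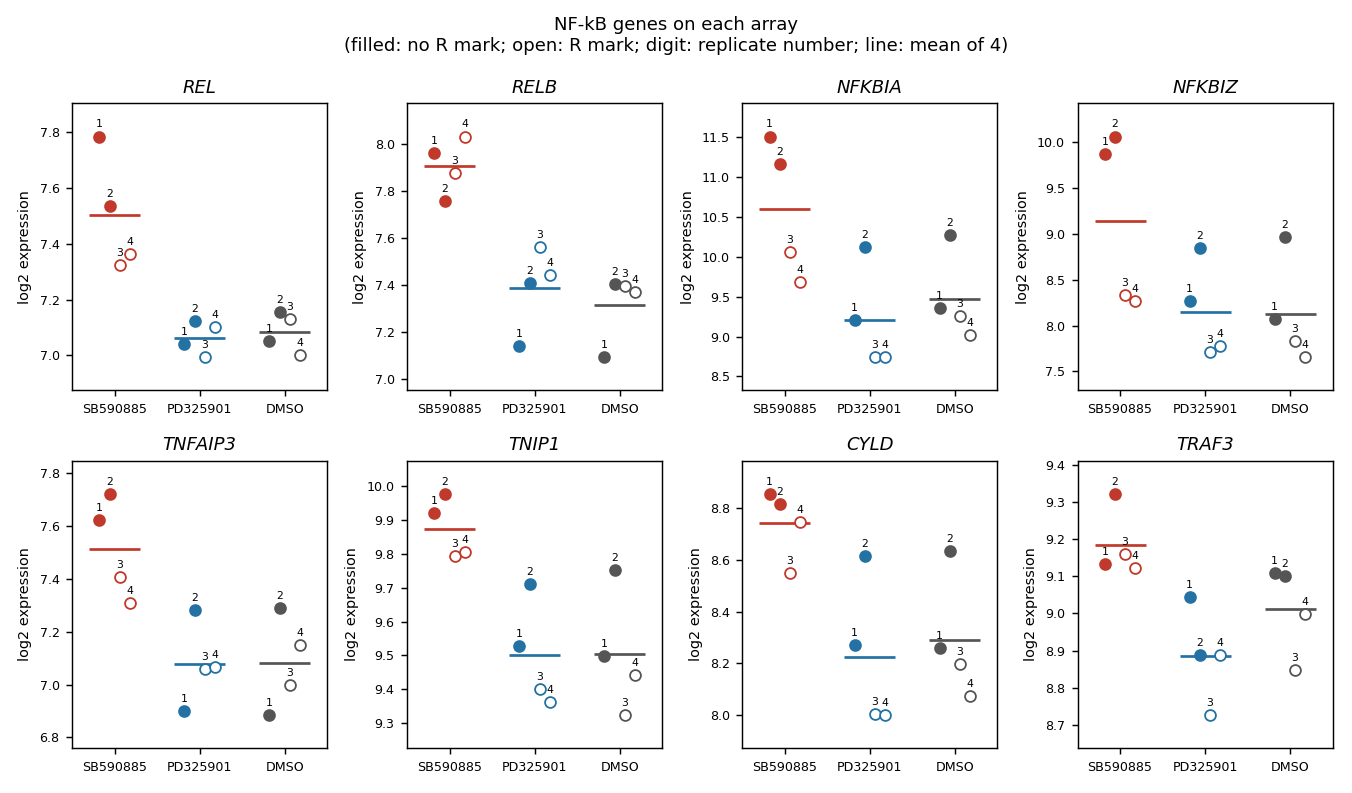
Log2 level on each array for members named in the text, by group, with the group mean as a line. The SB590885 arrays of REL and RELB lie above all arrays of the other groups.

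NFKBIA encodes I-kappa-B alpha, which holds NF-kB dimers in the cytoplasm and is itself switched on by them. Its levels were 11.51, 11.17, 10.06 and 9.69 in SB590885 cells, 9.21, 10.13, 8.75 and 8.74 in PD325901 cells, and 9.35, 10.27, 9.26 and 9.02 in DMSO cells. DMSO array 2 lay above SB590885 arrays 3 and 4, so the groups overlap. The change against DMSO was 1.13 ± 0.44 (SE, n = 4 each), a 2.19-fold difference, with limma's adjusted p = 0.242. A second, dim NFKBIA probe set gave 0.061, and the mean of both gave 0.60. Within replicate numbers every SB590885 array was higher, by 2.16, 0.89, 0.80 and 0.67, and with the block the adjusted p was 0.000575. Between arrays without the R mark the change was 1.53, and between arrays with it 0.73.

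NFKBIZ, a nuclear I-kappa-B protein that works with NF-kB at a subset of promoters, also differed most on arrays 1 and 2. Its levels were 9.88, 10.06, 8.34 and 8.27 in SB590885 cells, 8.27, 8.84, 7.71 and 7.77 in PD325901 cells, and 8.07, 8.97, 7.83 and 7.65 in DMSO cells. SB590885 arrays 1 and 2 were the highest of all 12, while arrays 3 and 4 lay under DMSO array 2. The change against DMSO was 1.01 ± 0.45 (SE, n = 4 each), with limma's adjusted p = 0.341 and 0.00045 with the block. The differences within replicate numbers were 1.81, 1.09, 0.51 and 0.62. A second probe set of NFKBIZ gave 0.65.

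The remaining I-kappa-B genes did not pass in either fit. NFKBIE differed by 0.18 against DMSO (limma adjusted p = 0.347, and at 0.05, just short of passing, with the block). NFKBIB had 7.99, 7.99, 8.13 and 8.24 in SB590885 cells, 8.22, 8.28, 8.21 and 8.26 in PD325901 cells, and 8.14, 8.10, 8.25 and 8.24 in DMSO cells. It was the only member whose SB590885 arrays all lay under the DMSO array of their own number, with a mean difference of -0.10.

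The ubiquitin-editing brakes of the canonical pathway were higher in SB590885 cells within replicate numbers. TNFAIP3, a ubiquitin-editing enzyme, had 7.62, 7.72, 7.41 and 7.31 in SB590885 cells, 6.90, 7.28, 7.06 and 7.07 in PD325901 cells, and 6.89, 7.29, 7.0 and 7.15 in DMSO cells. Its SB590885 arrays lay above all the others, the lowest at 7.31 beside 7.29 on DMSO array 2. The change against DMSO was 0.43 ± 0.11 (SE, n = 4 each), with limma's adjusted p = 0.0630 and 0.00069 with the block. A second probe set of TNFAIP3 gave 0.15.

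TNIP1, a binding partner of TNFAIP3, had 9.92, 9.98, 9.79 and 9.81 in SB590885 cells, 9.53, 9.71, 9.40 and 9.36 in PD325901 cells, and 9.50, 9.75, 9.32 and 9.44 in DMSO cells. Every SB590885 array lay above every array of the other groups. The change against DMSO was 0.37 ± 0.097 (SE, n = 4 each), with limma's adjusted p = 0.0632 and 0.000105 with the block. The other TNIP1 probe set, whose name does not mark it as shared, gave 0.11 (limma adjusted p = 0.432).

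CYLD, a deubiquitinase that takes apart the chains on which IKK signalling is built, had 8.85, 8.81, 8.55 and 8.75 in SB590885 cells, 8.27, 8.62, 8.01 and 8.0 in PD325901 cells, and 8.26, 8.63, 8.20 and 8.07 in DMSO cells. SB590885 array 3 lay under array 2 of both other groups. The change against DMSO was 0.45 ± 0.15 (SE, n = 4 each), with limma's adjusted p = 0.146 and 0.00064 with the block. CYLD has 7 probe sets, and 2 that were not chosen passed without the block over all named probe sets, at 0.56 (limma adjusted p = 0.000298) and 0.64 (limma adjusted p = 0.00352). Those 2 were picked out after their values were seen. The rest that were not chosen did not pass and gave 0.46, 0.11, 0.10 and 0.017, with the 0.11 and 0.10 from dim probe sets.

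In the non-canonical pathway, TRAF3 and BIRC2 were called with the block beside RELB. TRAF3, the adaptor that brings MAP3K14 to its degradation, had 9.13, 9.32, 9.16 and 9.12 in SB590885 cells, 9.04, 8.89, 8.73 and 8.89 in PD325901 cells, and 9.11, 9.10, 8.85 and 9.0 in DMSO cells. The SB590885 arrays lay just above the others, and the change against DMSO was 0.17, with limma's adjusted p = 0.372 and 0.0478 under the block. TRAF3 did not pass where the R mark replaced the block (limma adjusted p = 0.0556), nor under the block without array 2 of every group (0.157). A second TRAF3 probe set gave -0.10, and the mean of its probe sets 0.035 (limma adjusted p = 0.966).

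BIRC2, a ubiquitin ligase of the same complex, had 11.42, 11.58, 11.27 and 11.24 in SB590885 cells, 11.41, 11.55, 10.92 and 10.97 in PD325901 cells, and 11.15, 11.47, 10.93 and 10.89 in DMSO cells. Its groups overlap, and the change against DMSO was 0.27, with limma's adjusted p = 0.586 and 0.0049 with the block. MAP3K14 itself differed by 0.08 against DMSO (95% interval -0.11 to 0.27) and did not pass in either fit. IKBKE, an IKK-related kinase counted with the atypical regulators, differed by -0.05 (95% interval -0.24 to 0.14) and did not pass.

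Among the 13 target genes, CD83 and WTAP passed with the block. CD83, a surface protein of activated lymphoid and dendritic cells, had 7.08, 6.97, 7.13 and 7.12 in SB590885 cells, 6.72, 6.82, 7.10 and 6.98 in PD325901 cells, and 6.83, 6.83, 6.85 and 6.94 in DMSO cells. The SB590885 arrays lay above all DMSO arrays and overlapped those of PD325901. The change against DMSO was 0.21, with limma's adjusted p = 0.194 and 0.016 with the block. CD83 has 1 probe set. Its means of 6.87 in DMSO and 6.90 in PD325901 cells lie under the median of 6.92 over all probe sets.

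WTAP, a subunit of the RNA adenosine methyltransferase complex, had 11.22, 11.32, 11.19 and 11.10 in SB590885 cells, 11.01, 10.97, 10.76 and 10.72 in PD325901 cells, and 11.04, 11.05, 10.99 and 10.97 in DMSO cells. Its SB590885 arrays did not overlap the others, and the change against DMSO was 0.19, with limma's adjusted p = 0.213 and 0.0118 with the block. This rests on 1 probe set, whose name marks it as shared between transcripts. The brightest probe set of WTAP without that mark gave -0.019, and the mean of its probe sets 0.034. Without array 2 of every group the block gave an adjusted p of 0.0869.

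The other target genes did not pass against DMSO in either fit. CFLAR, a brake on death receptor signalling, had 9.86, 9.75, 9.99 and 9.82 in SB590885 cells, 10.21, 10.50, 9.72 and 9.82 in PD325901 cells, and 10.13, 10.40, 9.76 and 9.89 in DMSO cells. Its difference from DMSO was -0.46 between arrays without the R mark, where it was called lower (limma adjusted p = 0.0393), and 0.08 between arrays with it. The chemokine gene CCL5 likewise gave 0.69 without the mark and 0.01 with it. EBI3, a cytokine subunit, lay at 6.57 to 6.69 in SB590885 cells, 6.54 to 6.86 in PD325901 cells and 6.58 to 6.64 in DMSO cells. IL2RG, the shared receptor chain of the interleukin-2 family, lay at 6.66 to 6.86 in SB590885 cells, 6.49 to 6.93 in PD325901 cells and 6.64 to 6.82 in DMSO cells. TNFAIP2 lay at 6.77 to 6.93 in SB590885 cells, 6.74 to 7.04 in PD325901 cells and 6.73 to 7.02 in DMSO cells. EBI3, IL2RG, TNFAIP2 and NFKB2 are the 4 members whose mean over all 12 arrays lies under the median over all probe sets. ICAM1, CD40, TRAF1, CCL22, IRF1 and PLEK differed by -0.08 to 0.08.

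**Figure D4:**
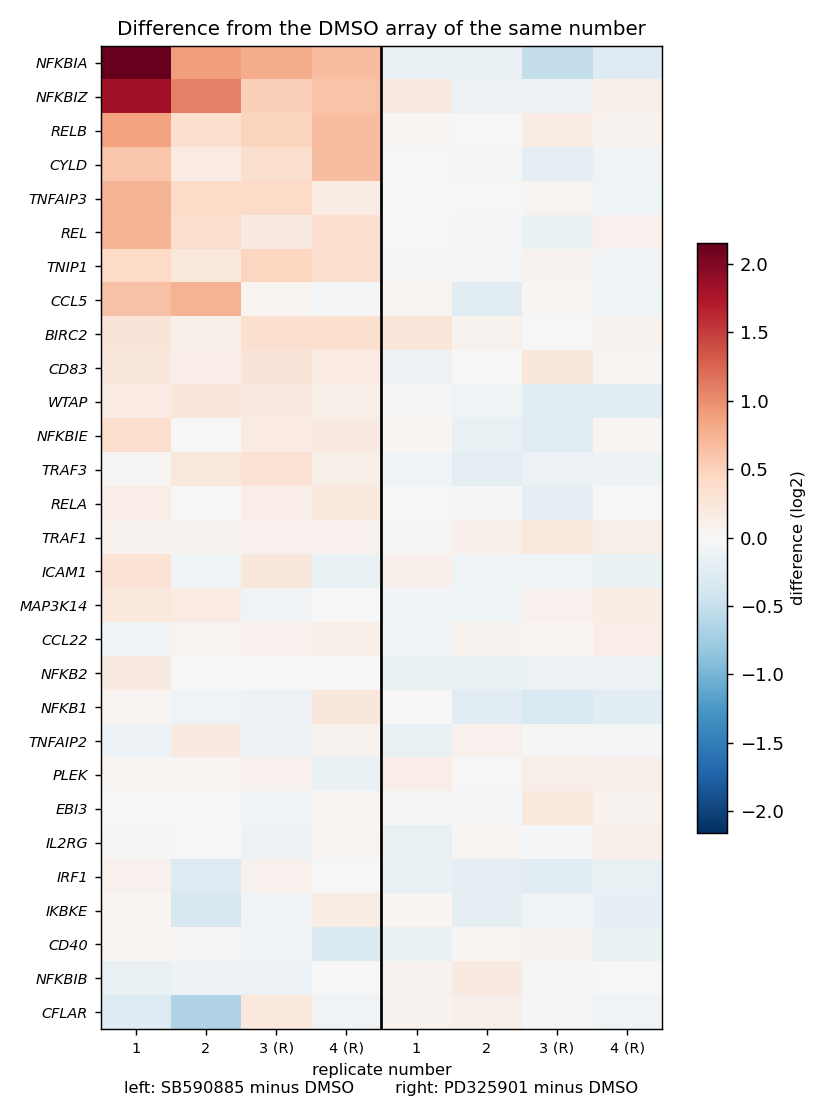
Difference of each SB590885 array (left) and PD325901 array (right) from its same-numbered DMSO array, in log2, for the 29 members ordered by their mean SB590885 change. NFKBIA differed by 2.16, 0.89, 0.80 and 0.67 for SB590885.

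MEK inhibition gave no call among these genes. In PD325901 cells 0 of 29 members passed against DMSO in limma (0.0860% of all genes were called higher and 0.506% lower), and 0 passed with the block (1.96% higher and 6.18% lower). At an unadjusted p under 0.05 there were 2 of 29, beside 6.80% of all genes, a share near the background. The median change was -0.02, against -0.0029 over all genes. NFKB1 had 8.78, 8.89, 8.76 and 9.06 in SB590885 cells, 8.70, 8.74, 8.56 and 8.58 in PD325901 cells, and 8.71, 8.99, 8.88 and 8.82 in DMSO cells. Its PD325901 difference from DMSO was -0.21 (limma adjusted p = 0.544, and 0.0701 with the block). For RELB the PD325901 difference was 0.07 (95% interval -0.14 to 0.29) and for REL -0.02 (95% interval -0.21 to 0.17). For NFKBIA it was -0.27 with a wide interval of -1.22 to 0.68, and for NFKBIZ 0.02 with -0.95 to 0.99. No member's PD325901 arrays lay all above or all below the DMSO arrays (1.40% and 2.68% of all genes did). The comparisons of SB590885 and of PD325901 with DMSO share the DMSO arrays.

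The inhibitors were also compared with each other, which tests the difference between them directly. In SB590885 cells 3 members rose against PD325901 cells (1.97% of all genes were called higher) and none fell (0.855%, with 2.82% called in either direction). REL rose by 0.44 (limma adjusted p = 0.0220, and 0.000675 with the block). RELB rose by 0.52 (limma adjusted p = 0.0166, and 0.000198 with the block). WTAP rose by 0.34 (limma adjusted p = 0.0248, and 0.000195 with the block). Of the 7 probe sets of WTAP, all 7 gave a positive difference and 1, the chosen one, passed over all named probe sets. The brightest without the shared mark gave 0.15 (limma adjusted p = 0.911). With the block 15 members were called higher (12.4% of all genes were) and 1, NFKBIB at -0.16, was called lower (5.73%), with 18.1% of all genes called in either direction. The 15 held 8 of the 9 canonical genes, namely NFKB1, RELA, REL, NFKBIA, NFKBIE, TNFAIP3, TNIP1 and CYLD. They also held NFKB2, RELB and TRAF3 of the non-canonical pathway, NFKBIZ, and the targets CCL5, CD83 and WTAP. The median difference was 0.17, against 0.00046 over all genes. In 8 members every SB590885 array lay above every PD325901 array (4.68% of all genes) and in none below (2.5%). In 16 every SB590885 array lay above its same-numbered PD325901 array (18.2%).

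Single arrays decided part of these calls. Leaving out SB590885 array 2, PD325901 array 1 or PD325901 array 3 ended the REL call against PD325901. The RELB call ended without SB590885 array 1 (adjusted p = 0.0546). The WTAP call ended without SB590885 array 1, 2 or 3 or PD325901 array 3 or 4.

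The promoter letters can be set beside the changes. Of the 10 members with a promoter sequence that were called higher in SB590885 cells against DMSO with the block, 8 held the consensus. Of the 15 that were not, 6 held it, among them NFKB1, NFKB2, NFKBIB and IRF1. The median change was 0.19 over the 14 members with the consensus and 0.08 over the 11 without. Those without it include the target genes TNFAIP2, TRAF1, ICAM1, EBI3, PLEK, IL2RG and WTAP. Those with it include most canonical genes, beside the target genes CD83, CFLAR, CCL22 and IRF1. The split by consensus thus overlaps with the split by role, and the part of either was not tested. BIRC2 and WTAP passed with the block and have no match in the window. RELB, NFKBIE, CD40 and CCL5 are named only.

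**Figure D5:**
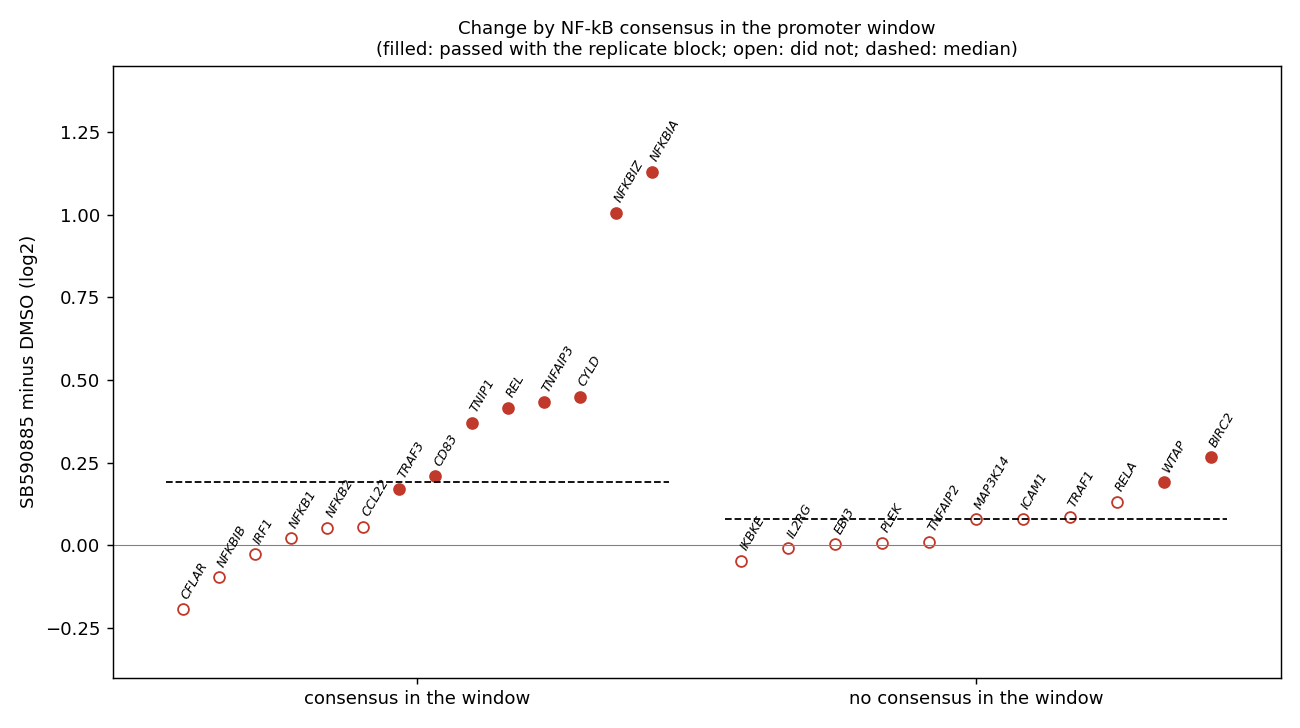
SB590885 minus DMSO change in log2 for the 25 members with a promoter sequence, split by whether the consensus stands in the window, with the median as a dashed line. The medians are 0.19 with the consensus and 0.08 without, and filled points passed with the replicate block.

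The wider pathway showed few calls without the block. Of 15 genes of the IKK complex and its adaptors none passed for SB590885 against DMSO. At an unadjusted p under 0.05 there were 2, beside 13.5% of all genes. With the block 4 were higher and 4 lower, beside 9.09% and 9.84% of all genes. Of 19 receptors and ligands, TNFRSF1B, a TNF receptor, fell by 0.60 in SB590885 cells (limma adjusted p = 0.0190, and 0.000396 with the block), and its PD325901 difference was -0.56 (limma adjusted p = 0.0708, and 0.00182 with the block). Of 19 further ubiquitin editors and brakes none passed against DMSO. For SB590885 there were 3 at an unadjusted p under 0.05, near the same 13.5%. With the block OTUD7B was higher and TNFAIP8 lower for SB590885, beside 9.09% and 9.84% of all genes. RBCK1, RNF11 and TNFAIP8 were lower for PD325901 with the block, beside 6.18% of all genes. OTUD7B, a deubiquitinase, rose by 0.26 in SB590885 against PD325901 cells (limma adjusted p = 0.0391, and 0.000912 with the block). TNFRSF17, a plasma cell receptor, was lower by 0.53 in the same comparison (limma adjusted p = 0.0346, and 0.000391 with the block). Its mean was 12.86 in SB590885, 13.39 in PD325901 and 12.96 in DMSO cells. The PD325901 difference of TNFRSF17 from DMSO was 0.43 (limma adjusted p = 0.216, and 0.00506 with the block). Of 44 other genes switched on by NF-kB, the chemokine gene CCL2 was the only call against DMSO without the block. It fell by 2.00 in SB590885 cells (limma adjusted p = 0.000883) and by 2.6 in PD325901 cells (limma adjusted p = 0.00011). With the block 2 of the 44, MARCKS and NINJ1, were higher for SB590885 and 2, CCL2 and TNFSF10, lower, beside 9.09% and 9.84% of all genes. For PD325901 1, MARCKS, was higher and 2, CCL2 and XIAP, lower with the block, beside 1.96% and 6.18% of all genes.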

How the data were processed

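RNA of 12 samples of INA-6 cells, 4 in each of 3 groups, was measured on Affymetrix HGU133 Plus 2.0 arrays. The deposited values are log2 levels per probe set, made with RMA in R 3.0.1 per the submitters' processing notes. The arrays do not share the same distribution of values. Their SD over probe sets was 1.52 to 1.55 without the R mark and 1.39 to 1.45 with it, and their medians ran from 6.88 to 6.97. The number of arrays limits the precision. Of 54675 probe sets, 62 controls were left out, and 41091 paired with 1 symbol in the platform annotation were used, while 1801 paired with several and 11721 with none were not. Each of 19775 genes was read from its brightest probe set by mean over all arrays. A group-means model with limma 3.58.1 in R 4.3.3 was fitted to all 12 arrays, with eBayes without trend and Benjamini-Hochberg adjustment over all genes, called at an adjusted p under 0.05, and the script was tested on simulated data. The replicate number was fitted as a block, since every pair of same-numbered arrays correlated above the limit set for pairing and 12 of 12 arrays had their best partner at their own number. In all 26 alternatives were run. Members are described in full where either fit calls them or where their level is among the highest or lowest, and other pathway genes where the fit calls them. The members and lists were chosen with earlier results of these data known.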

Additional observations from a re-analysis of the deposited data

Results flagged for a closer look

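Of 87 sets of 4 arrays, 1 for each member and group, 6 held an array farther from the other 3 than Dixon's 95% critical value allows for the gap over the range, where chance flags about 1 in 20. RELB was low on DMSO replicate 1, at 7.09 against 7.37 to 7.40 on the other DMSO arrays. IRF1, an interferon regulatory factor, was high on PD325901 replicate 2, at 8.59 against 8.03 to 8.09, and on DMSO replicate 2, at 8.80 against 8.21 to 8.26. These are the arrays with the high interferon response level. TNFAIP2 was low on SB590885 replicate 1, at 6.77. PLEK was high on SB590885 replicate 3, at 7.37, and IL2RG on SB590885 replicate 4, at 6.86.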

How the results depend on the processing

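The count of members called for PD325901 against DMSO was 0 under all 26 alternatives. For SB590885 against DMSO the count of 2 was 11 with the replicate block, 10 with a term for the R mark, 7 on unmarked arrays alone (6 higher and 1, CFLAR, lower), 7 on marked arrays alone, 0 without array 2 of every group, 4 without array 2 of DMSO and PD325901, 1 with only the compared groups, 1 with arrays centred on their median, 7 after quantile normalisation and 4 with the mean of probe sets, and 1 to 3 when each array was left out. For SB590885 against PD325901 the count of 3 was, in the same settings where it moved, 16 (1 lower), 15 (1 lower), 9 (2 lower) and 13, then 5 without array 2 of DMSO and PD325901, 1 with only the compared groups, 1 when centred and 8 after quantile normalisation, and 1 to 5 when each array was left out. Without array 2 of every group the block gave 10 and 15, an alternative chosen after seeing the data. The 1 reversed value was WTAP against DMSO, at -0.019 (limma adjusted p = 0.995) from its unshared probe set.

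Over all genes, SB590885 against DMSO gave 649 calls, and 3742 with the replicate block, 3331 with the mark as a term, 2637 on unmarked and 1066 on marked arrays, 78 without array 2 of every group, 320 without array 2 of DMSO and PD325901, 382 when centred (143 higher, 239 lower), 1633 after quantile normalisation (869 higher, 764 lower), 432 with a trend and 2717 with the block and no array 2. Leaving out each array gave 245 to 691. PD325901 against DMSO gave 117 (17 higher, 100 lower), and 1610 with the block, 1289 with the mark, 186 on unmarked and 1079 on marked arrays, 63 without array 2, 349 after quantile normalisation (173 higher, 176 lower) and 1296 with the block and no array 2, with 72 to 126 when each array was left out. SB590885 against PD325901 gave 558 (389 higher, 169 lower), and 3582 with the block, 3187 with the mark, 2358 on unmarked and 1770 on marked arrays, 180 without array 2, 225 with only the compared groups, 307 when centred, 1555 after quantile normalisation (877 higher, 678 lower) and 2741 with the block and no array 2, with 281 to 509 when each array was left out. The cause was not tested. All 649, 117 and 558 calls were also made with the block.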
